A study of Populus tremula x Populus alba with 72 samples.

Results

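The interaction of leaf position with 100 ppb ozone on day 13 was measured as the ozone response of growing leaves minus the ozone response of expanded leaves, gene by gene. It was taken from 16 of the 72 leaf RNA libraries of the series, 4 in each of 4 groups, which were chosen by their labels alone. The series is titled for ozone-responsive genes and their regulation in developing leaves, and the contrast asks whether leaves of different development answered the gas differently. A positive interaction means that a transcript was higher, relative to filtered air, in growing than in expanded leaves. A negative interaction means the opposite.

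All trees were young hybrid poplars (Populus tremula x alba) of the single micropropagated clone INRAE 717-1B4, 2.5 months old when exposure started. They stood in phytotron chambers in charcoal-filtered air, the control, or in the same air with 100 ppb ozone for 13 h of the daytime. Expanded leaves carry the code F3 in the library names and growing leaves the code F10, and the labels do not say what the codes count. The 4 groups of day 13 are thus expanded control, expanded 100 ppb, growing control and growing 100 ppb. Nothing in the labels ties a replicate number to a tree, or gives the number of trees or chambers, so p-values measure the spread between these libraries only. Because the clone is a single genotype, other genotypes were not sampled.

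Ozone enters leaves through the stomata and breaks down to reactive oxygen species in the cell wall space, where it sets off antioxidant and defence programmes, lowers photosynthesis and hastens senescence. Leaves of different age are known to differ in ozone sensitivity, since cell wall, stomatal opening, antioxidant pools and the supply of carbon change while a leaf grows. Growing leaves import sugar and still build their photosynthetic apparatus, whereas expanded leaves export it. RNA of whole leaves was measured, so fewer cells of a type and less RNA per cell cannot be told apart.

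Poly(A)-selected RNA was sequenced, and the values are normalized counts, which are read counts divided by a factor per library. The 16 libraries held 36.4 to 53.2 M reads in genes (median 41.5 M), and between 28262 and 29025 genes had reads in each. The table lists 34699 genes and pairs none of its identifiers with a name or description. Genes are therefore given by identifier alone, no more than 2 in each direction for a contrast, and the leaf labels could not be checked against marker genes. Whether a named gene shares reads with a near-identical copy or an overlapping gene was not assessed.

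Some libraries stood apart from the rest of their group. In a principal component analysis of the 16 libraries the first component held 58.9% of the variance. On it the expanded controls were spread from −98.0 to 33.7 (mean −29.3 ± 60.02, SD, n = 4), while the expanded 100 ppb libraries lay between 113 and 153 (137 ± 17.0). Growing controls lay close together at −122 ± 9.99, and the growing 100 ppb libraries at 14.3 ± 49.3. Replicate 1 of the growing 100 ppb group was the one nearest its controls, at −56.6 against 18.3 to 50.5 in the other libraries of the group. On the second component, with 13.7% of the variance, that library lay at −9.27 and the others of its group between −98.2 and −71.5. The median SD per gene on the log2 scale was 0.31 in expanded controls, the highest of all 18 groups of the series, 0.25 in expanded 100 ppb, 0.19 in growing controls and 0.22 in growing 100 ppb.

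**Figure D1:**
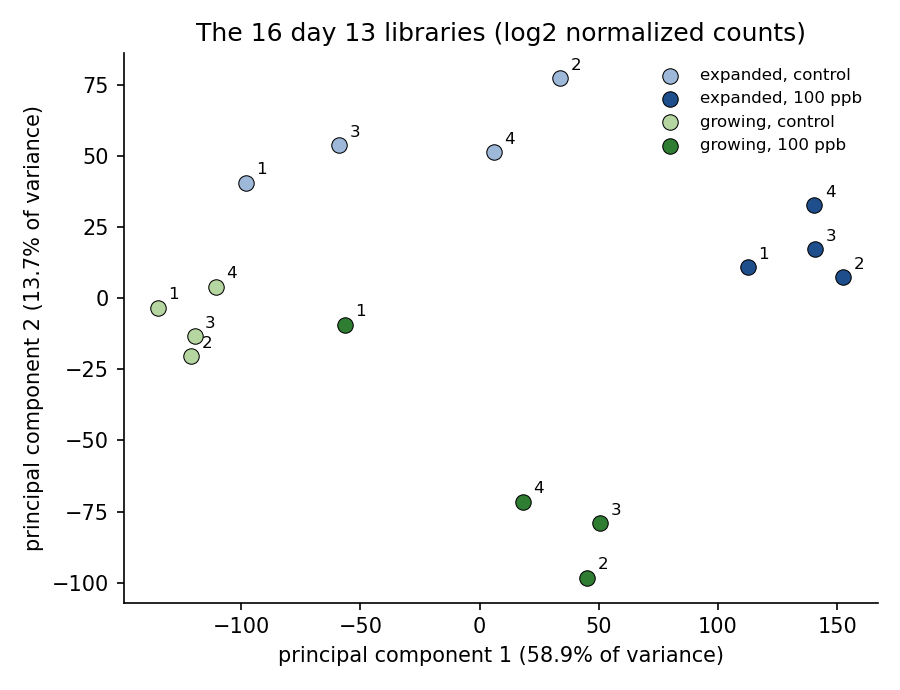
Scores of the 16 day 13 libraries on the first (x axis, 58.9% of variance) and second (y axis, 13.7%) principal component of log2 normalized counts, coloured by group and numbered by replicate. Expanded controls are spread along the first component, and replicate 1 of the growing 100 ppb group lies between its controls and the other 3 libraries of its group.

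Ozone at 100 ppb changed the expression of many genes in each leaf position, and the response differed between the positions in 976 genes. Of the 27780 genes tested, 976 (3.51%) passed the interaction test at an adjusted p under 0.05 (limma with Benjamini-Hochberg adjustment), 536 with a positive (1.93%) and 440 with a negative interaction (1.58%), and 532 differed by at least 2-fold. Positive interactions had a median of 1.25 on the log2 scale (interquartile range 0.76 to 2.06, largest 4.84), and 145 were at least 4-fold. Negative interactions had a median size of 0.93 (0.61 to 1.55, largest 5.82), and 77 were at least 4-fold.

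The count rests on 1 spread per gene shared by all 72 libraries, although the expanded controls had the widest of the 18 groups. With a weight per group, which lets groups differ in spread, 528 genes passed, 527 of them among the 976. When the spread was estimated from the 16 libraries alone, 17 genes passed, 9 positive and 8 negative, and 14 of them were among the 976. In that fit 3574 genes had an unadjusted p under 0.05 (12.9%), against 4560 (16.4%) with all libraries. Of the 976 genes, 346 passed in every fit that left out 1 of the 16 libraries (207 positive, 139 negative), 915 also passed in edgeR's quasi-likelihood test and 938 in DESeq2. The count was 401 without replicate 4 of expanded 100 ppb and 620 without replicate 4 of growing controls. Without replicate 1 of growing 100 ppb it was 798, of which 668 were shared. None of the 976 changed sign in any of these 16 fits. Of the passing genes 54.9% were positive as deposited, 50.5% with TMM scaling (trimmed mean of M-values), 46.1% with a pseudocount of 8 and 90.1% when every library was scaled to the same total, which moved the median interaction of all genes from 0.02 to 0.23. No majority direction therefore held.

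In most of the 976 genes the larger response was in expanded leaves. Their responses in growing leaves had medians of −0.17 in the positive and −0.06 in the negative genes. Both signs occurred there, with 226 of 536 and 182 of 440 above 0. Tested alone, 11413 genes changed in expanded leaves at 100 ppb (41.1% of those tested, 22.1% higher and 19% lower) and 7773 in growing leaves (28%, 17% higher and 11% lower). Of the changed genes 53.8% were higher in expanded and 60.8% in growing leaves, and 44.3% and 78.8% were when all libraries were scaled to equal totals. Across all tested genes the responses of the leaf positions were correlated (Pearson r = 0.82, Spearman rho = 0.71, a description across genes, which are not independent replicates; each response has its own controls). Of 5550 genes that changed in both positions, 5507 moved the same way. The response was larger in expanded leaves in 809 of the 976 interaction genes (82.9%) and in 59.6% of all tested genes. This share was 69.9% of the interaction genes and 52.2% of all genes without replicate 1 of growing 100 ppb, and 69.2% and 56.03% without replicate 1 of the expanded controls. Over the other 14 libraries left out it stayed between 80.6% and 90.7%. The 976 genes were chosen by the difference of these responses in the same libraries, so their share follows in part from the choice. Nothing is read from its distance to the share of all genes.

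**Figure D2:**
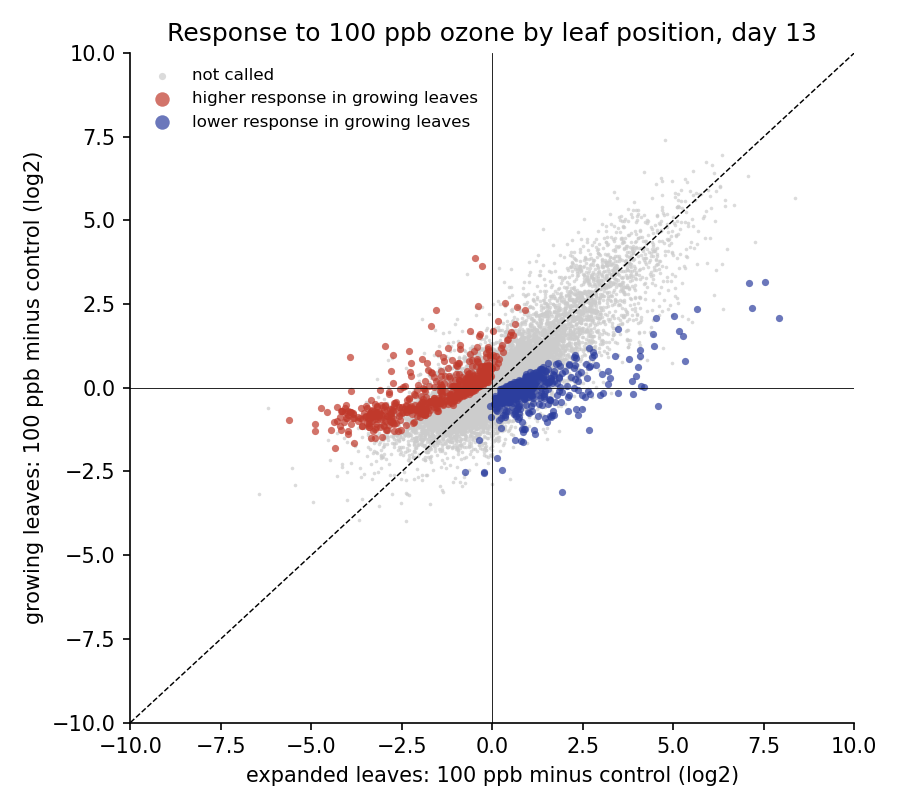
Each point is 1 of 27780 tested genes, with its log2 response to 100 ppb ozone in expanded leaves on the x axis and in growing leaves on the y axis; the dashed line marks equal responses. The 536 genes with a positive interaction (red) lie mostly at negative x near y = 0, the 440 with a negative interaction (blue) at positive x near y = 0, and most other genes (grey) spread along the line.

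How the interaction arose was described from the separate responses, which use the same libraries and so carry no further test. Of the 536 genes with a positive interaction, 333 (62.1%, against 11.9% of all tested genes) fell in expanded leaves and did not pass the test in growing leaves, with median log2 responses of −1.43 and −0.17. A further 98 (18.3%, against 6.97%) fell in both positions, with medians of −2.58 in expanded and −0.85 in growing leaves. In 80 genes (14.9%, against 4.09%) the rise in growing leaves passed (median 0.65) and the change in expanded leaves did not (−0.16), and 4 rose in both (0.746%, against 12.9%). The interaction is the difference of these responses, so the members' shares follow in part from how they were chosen and nothing is read from their distance to the shares of all genes. Genes with a positive interaction were thus mainly transcripts whose decline under ozone passed the test in expanded leaves and whose change in growing leaves mostly did not pass.

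Genes with a negative interaction were mainly transcripts that rose in expanded leaves. Of the 440, 314 (71.4%, against 9.17% of all tested genes) rose there, by a median of 0.89, and did not pass in growing leaves (−0.03). Another 41 (9.32%, against 12.9%) rose in both positions, by 1.75 in expanded and 0.71 in growing leaves. In 59 genes (13.4%, against 3.92%) the fall in growing leaves passed (−0.59) and the change in expanded leaves did not (0.21). Without replicate 1 of growing 100 ppb the leading classes held 50.7% of the positive and 63.5% of the negative genes, against 62.1% and 71.4%. Among the 346 genes that passed in all fits with a library left out, these classes held 125 of 207 and 104 of 139.

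A small set of genes moved in opposite directions. Of the genes that changed in both positions, 43 did so with opposite signs, so that by construction the interaction adds the sizes of both responses. All 43 were among the 976. In 20 the transcript fell in expanded leaves (median −0.44) and rose in growing leaves (0.39), with interactions from 0.45 to 3.52. In the other 23 it rose in expanded leaves (0.70) and fell in growing leaves (−0.63), with interactions from −5.05 to −0.46. Of these, 20 and 18 passed the interaction test in every fit without a library.

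The same data were read the other way, as the difference between leaf positions within each air. In filtered air on day 13, 6938 genes differed between growing and expanded leaves (25%, 15% higher and 10% lower in growing leaves), and at 100 ppb 9543 did (34.4%, 19.6% higher and 14.8% lower). Without replicate 2 of the expanded controls the first count was 4425. On the earlier days more genes differed in filtered air, 17488 on day 2 (63%) and 15106 on day 8 (54.4%). By this count the leaves labelled growing were nearer to expanded leaves on day 13 than before. Of the 536 genes with a positive interaction, 248 (46.3%, against 8.8% of all tested genes) did not differ in filtered air and were higher in growing leaves at 100 ppb, where the median difference was 1.11 against 0.04. A further 192 (35.8%, against 10.7%) were higher in growing leaves in both airs, with a median of 1.87 in filtered air and 3.97 at 100 ppb, and 75 (14.0%, against 5.57%) were lower in growing leaves in filtered air and did not differ at 100 ppb. Of the 440 genes with a negative interaction, 304 (69.1%, against 10.2%) did not differ in filtered air and were lower in growing leaves at 100 ppb (median −0.85 against 0.05). Another 73 (16.6%, against 4.09%) were higher in filtered air and did not differ at 100 ppb, and 39 (8.86%, against 0.14%) went from higher to lower. These shares, too, follow in part from the choice of the genes. With equal totals the median of all genes in filtered air shifted to −0.26 and 22.6% of the differing genes were higher in growing leaves, against 59.9%, so classes that rest on this contrast depend on the scaling.

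In edgeR, in the fit of the 16 libraries alone and in every fit without a library, 13 of the 976 genes passed throughout, 8 positive and 5 negative. Genes are named from these where at least 1 of the 4 groups averaged 100 normalized counts or more. Both leading positive genes were transcripts that nearly disappeared from expanded leaves under ozone. Potri.010G184000 stood at 499.7, 135, 407 and 211 normalized counts in the expanded controls (replicates 1 to 4) and at 14.96, 24.7, 22.6 and 7.01 in expanded leaves at 100 ppb. In growing leaves it stood at 1212, 1344, 1229 and 775 in controls and at 806, 972, 634 and 755 at 100 ppb. The expanded groups did not overlap, the growing groups did, and every growing library was above every expanded one. The response was −4.05 ± 0.28 (SE, log2) in expanded leaves (adjusted p = 2.93e-16) and −0.51 ± 0.28 in growing leaves (adjusted p = 0.18), and the interaction was 3.54 ± 0.40 (limma, adjusted p = 4.01e-08).

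Potri.018G103900 followed the same order of groups. Expanded controls held 1029.7, 301, 895 and 426, and expanded leaves at 100 ppb 49.0, 63.3, 30.1 and 22.8. Growing controls held 2617, 3106, 2727 and 1853, and growing leaves at 100 ppb 1983, 1617, 1299 and 1327. Again the expanded groups were apart and the growing groups overlapped, with replicate 4 of the controls below replicate 1 at 100 ppb. The response was −3.90 ± 0.31 in expanded (adjusted p = 3.02e-14) and −0.72 ± 0.31 in growing leaves (adjusted p = 0.0776), with an interaction of 3.18 ± 0.44 (limma, adjusted p = 3.83e-06).

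Potri.001G362200, the leading negative gene, was raised in a single group. It held 44.9, 44.9, 17.1 and 15.6 in expanded controls and 159.8, 189, 312 and 311 in expanded leaves at 100 ppb. Growing controls held 39.4, 28.3, 31.3 and 30.7 and growing leaves at 100 ppb 31.7, 36.0, 27.5 and 22.3. All 4 expanded 100 ppb libraries were above the other 12, which overlapped across their groups. The response was 3.05 ± 0.40 in expanded (adjusted p = 1.42e-08) and −0.15 ± 0.40 in growing leaves (adjusted p = 0.825), with an interaction of −3.20 ± 0.56 (limma, adjusted p = 0.000201).

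Potri.017G041500 was one of the genes with opposite responses. In expanded leaves it stood at 39.4, 40.7, 50.5 and 39.7 in controls and at 97.2, 97.0, 177 and 241 at 100 ppb. In growing leaves it stood at 122, 121, 98.6 and 87.6 in controls and at 80.0, 41.5, 67.2 and 60.4 at 100 ppb. Neither pair of groups overlapped: every ozone library was above its controls in expanded leaves and below them in growing leaves. The response was 1.72 ± 0.24 in expanded (adjusted p = 5.55e-08) and −0.80 ± 0.24 in growing leaves (adjusted p = 0.00786), with an interaction of −2.52 ± 0.33 (limma, adjusted p = 2.09e-06). In filtered air growing leaves were higher by 1.31 ± 0.24, and at 100 ppb they were lower by a log2 difference of −1.21 ± 0.24. The choice of these 4 genes fixed their calls in 18 of the 26 alternatives, where adjusted p-values reached 0.0491 in the fit of the 16 libraries alone, and they were also called in the other 8.

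**Figure D3:**
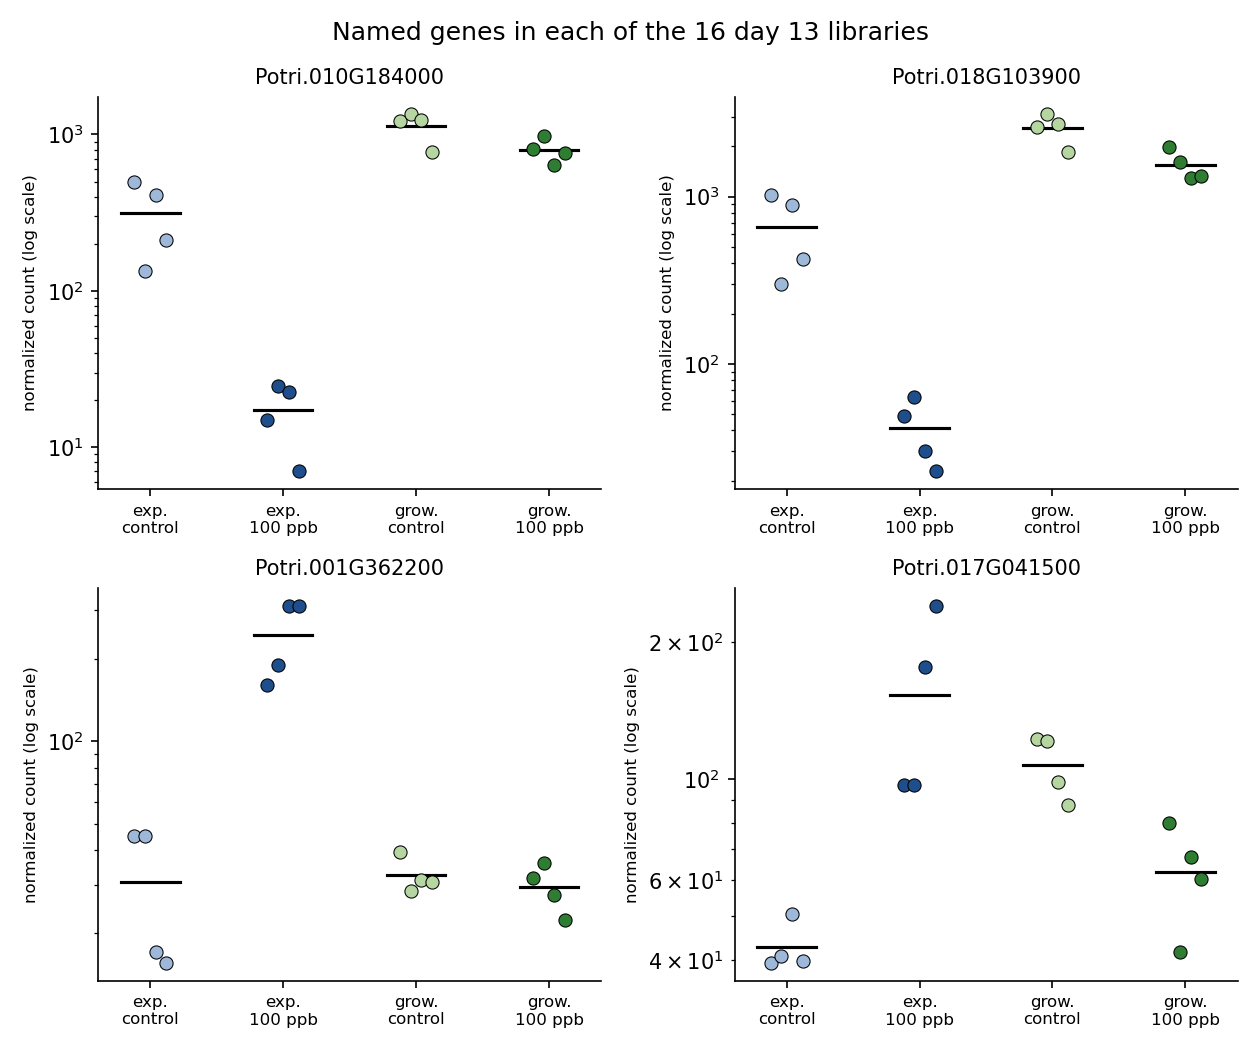
Normalized counts (y axis, log scale) of the 4 named genes in each of the 16 day 13 libraries; points are libraries in the order of replicates 1 to 4, and the line is the mean of 4. In the upper panels the expanded 100 ppb libraries are far below all others, in the lower left panel they are above all others, and in the lower right panel ozone libraries are above controls in expanded leaves and below them in growing leaves.

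Both positive genes were then read on the other days. In filtered air Potri.010G184000 averaged 1214 ± 174 normalized counts on day 2, 632 ± 113 on day 8 and 313 ± 169 on day 13 in expanded leaves (SD, n = 4), and 177 ± 34.2, 728 ± 45.8 and 1139.95 ± 250.0 in growing leaves. Potri.018G103900 averaged 2398 ± 317, 1681 ± 187 and 663 ± 354 in expanded and 447 ± 36.2, 1055 ± 137 and 2576 ± 525 in growing leaves on those days. Both were thus lower on later days in expanded leaves and higher on later days in growing leaves, and changes with time in filtered air were not tested here. At 100 ppb on day 8 both fell in expanded leaves, with log2 responses of −1.04 ± 0.28 (adjusted p = 0.00739) and −1.60 ± 0.31 (adjusted p = 0.000406, limma). In growing leaves of day 8 the responses were −0.12 and −0.32 and neither passed. The day 8 interactions of 0.91 ± 0.40 and 1.28 ± 0.44 did not pass either (adjusted p = 0.274 and 0.175).

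The responses of the negative genes did not pass on day 8. Potri.001G362200 responded by 0.12 ± 0.40 in expanded and 0.50 ± 0.40 in growing leaves of that day (limma, adjusted p = 0.859 and 0.988), and its interaction changed by −3.57 ± 0.79 from day 8 to day 13 (adjusted p = 0.0399). Potri.017G041500 responded by 0.40 ± 0.24 and −0.30 ± 0.24 on day 8 (adjusted p = 0.230 and 0.989). On day 2 it fell in expanded leaves, with a response of −0.80 ± 0.24 (limma, adjusted p = 0.0259), the opposite of its rise there on day 13, and the day 2 response in growing leaves was −0.08 ± 0.24 (adjusted p = 0.981).

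Whether the interaction genes differed between leaf positions elsewhere was read from libraries that the day 13 contrast does not use. Most of these genes changed in expanded leaves on day 13, where 451 of the 536 fell and 378 of the 440 rose. On day 8, 5468 of all tested genes passed in expanded and 11 in growing leaves. The choice thus favours genes that respond in expanded leaves, so all tested genes are not an equal background for the shares given here. On day 8 the 536 positive genes had a median interaction of 0.47, and 437 of them (81.5%) were above 0, as were 50.8% of all tested genes. The 440 negative genes had a median of −0.19, and 326 (74.1%) were below 0, as were 49.2% of all genes. With each of the 16 day 8 libraries left out in turn, the medians ranged from 0.40 to 0.54 and from −0.22 to −0.15, and the shares from 79.7% to 82.8% and from 69.3% to 76.8%. The changes on day 8 were in expanded leaves. There 224 of the 536 positive genes fell at 100 ppb (41.8%, against 8.51% of all tested genes, where 19.7% changed in either direction) and 105 of the 440 negative genes rose (23.9%, against 11.2%), with median responses of −0.44 and 0.19. In growing leaves of day 8 the medians were −0.01 and 0.01, and none of the 976 genes was among the 11 that passed the test by limma (0.0396% of those tested, 0.0288% higher and 0.0108% lower, with 1644 of all genes at an unadjusted p under 0.05).

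On day 2 little of the pattern was seen. The medians were 0.10 for the positive genes, with 59.3% above 0, and 0.00 for the negative genes, with 49.8% below 0. Across all tested genes the day 13 interaction had a Pearson r of 0.24 with that of day 8 and 0.01 with that of day 2, again as a description across genes.

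**Figure D4:**
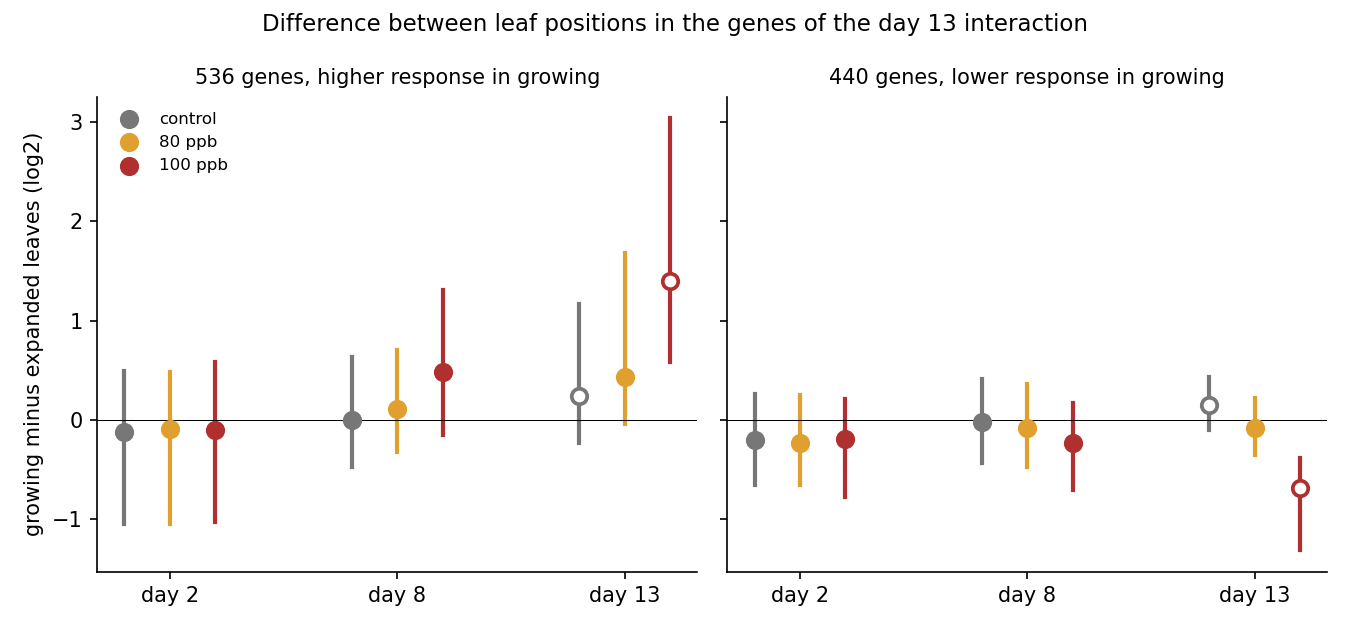
Growing minus expanded leaves (y axis, log2) in the 536 genes with a positive (left) and the 440 with a negative day 13 interaction (right), by day and air; points are medians over genes and bars interquartile ranges, and open points mark the groups that chose the genes. On day 8 the 100 ppb points lie furthest from the control points, at 0.48 and −0.23, and on day 2 the points of the 3 airs lie close together.

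At 80 ppb no gene passed the test. Limma called 0 of 27780 genes for the day 13 interaction at 80 ppb, 1170 genes (4.21%) had an unadjusted p under 0.05, edgeR called 0 and DESeq2 5. This contrast shares its 8 control libraries with that at 100 ppb, so values are only set side by side. The medians were 0.28 in the 536 positive genes and −0.20 in the 440 negative genes, against 1.25 and −0.93 at 100 ppb. Taken from the 8 libraries of 80 ppb alone, the median difference of growing minus expanded leaves was 0.43 in the positive genes, between 0.24 in controls and 1.40 at 100 ppb. In the negative genes it was −0.08, between 0.15 and −0.68. The genes were chosen for the distance between the control and 100 ppb values, so a value between these is favoured by the choice. No step with the ozone level is read from it. For Potri.010G184000 expanded leaves at 80 ppb held 119 to 213 normalized counts, against 135 to 499.7 in their controls, and growing leaves 829 to 1455 against 775 to 1344, so that both pairs of groups overlapped.

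The interaction was also tested on the earlier days and for its change between days. It passed in 19 genes on day 8 (0.0684%; 7 positive, 0.0252%, and 12 negative, 0.0432%) and in 109 on day 2 (0.392%; 52 positive, 0.187%, and 57 negative, 0.205%). Of the 7 positive genes of day 8, 6 were positive on day 13 and 1 passed there, with a median of 0.92, whereas the 12 negative genes had a day 13 median of −0.07 and 2 passed. The genes of day 2 did not keep their direction: 24 of 52 and 30 of 57 had the same sign on day 13. The change of the interaction from day 8 to day 13 passed in 27 genes (0.0972%; 17 positive, 0.0612%, and 10 negative, 0.036%), so most differences between the counts of these days were not shown gene by gene. These small counts moved with single libraries by over 1.5 times. For day 2 every library did so (12 to 1107 genes), and for day 8 every library except replicate 4 of the expanded controls (0 to 298). For the change between days (4 to 342) the exceptions were, on day 8, expanded control 4, growing control 2 and growing 100 ppb 1 and 4, and, on day 13, expanded controls 2 and 3, growing controls 1 and 3 and growing 100 ppb 4.

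The genes with the largest effect in these contrasts, among those with a mean of at least 100 in a compared group, were chosen after their values were seen. On day 8 Potri.010G178200 held 558 to 1287 normalized counts in expanded controls and 141 to 341 at 100 ppb, but 202 to 238 and 161 to 254 in growing leaves (interaction 1.97 ± 0.40, limma, adjusted p = 0.0411). Potri.003G152400 held 13.0 to 30.3 and 246 to 1330 in expanded leaves of that day and 4.03 to 15.3 and 5.18 to 24.6 in growing leaves (−4.17 ± 0.90, adjusted p = 0.0431). By day 13 the latter had risen in both positions, by 5.05 ± 0.64 in expanded and 5.69 ± 0.64 in growing leaves (adjusted p = 7.3e-09 and 1.72e-08), and the day 13 interaction was 0.64 ± 0.90 (adjusted p = 0.814). The calls for the day 8 interaction were lost in 12 and 15 of 26 alternatives, with adjusted p-values from 0.00591 to 0.156 and from 0.00762 to 0.185. On day 2 Potri.006G060000 had an interaction of 2.84 ± 0.68 (adjusted p = 0.0417) and Potri.019G122100 of −4.66 ± 0.98 (adjusted p = 0.0184, limma), lost in 13 and 7 of 26 alternatives (0.00621 to 0.191 and 0.00059 to 0.118).

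Among the genes that passed and averaged 100 normalized counts or more in a compared group, Potri.015G099400 had the most negative change of the interaction from day 8 to day 13. On day 13 it held 11.0, 1.66, 8.14 and 2.33 normalized counts in expanded controls and 8.84, 10.7, 30.1 and 55.2 at 100 ppb. In growing leaves it held 18.7, 38.1, 41.7 and 15.3 in controls and 0, 6.46, 2.29 and 2.79 at 100 ppb. The growing groups were apart, and the expanded groups overlapped. The response was 1.92 ± 0.55 in expanded (adjusted p = 0.00356) and −3.12 ± 0.55 in growing leaves (adjusted p = 1.63e-05), and the change of the interaction was −5.84 ± 1.10 (limma, adjusted p = 0.0117), lost with the compared libraries alone (0.112; range over 42 alternatives 2.17e-05 to 0.112). In growing leaves of day 8 it held 135 to 199 in controls and 127 to 180.4 at 100 ppb. In the other direction, Potri.016G057600 went from an interaction of −4.65 ± 1.09 on day 8 to 2.49 ± 1.09 on day 13, of which neither passed (adjusted p = 0.0607 and 0.218). The change was 7.15 ± 1.54 (adjusted p = 0.0359, limma) and was lost in 15 of 42 alternatives (9.15e-05 to 0.203). Its expanded controls ranged from 2.00 to 42.6 normalized counts on day 8 and from 4.88 to 194 on day 13. Expanded leaves at 100 ppb held 93.2 to 289 and 27.1 to 61.2 on those days. Growing leaves of day 8 held 17.5 to 56.8 in controls and 4.62 to 25.7 at 100 ppb. Those of day 13 held 5.48 to 26.6 and 48.4 to 229.

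Genes that rose and genes that fell on day 8 were followed to day 13 in both positions. They were chosen by their response to 100 ppb in expanded leaves of day 8, at least 2-fold and past the test, and read in the day 13 libraries. This choice favours genes that respond in expanded leaves, so all tested genes are not an equal background. No set was chosen in growing leaves, where 11 genes passed on day 8. The 1257 genes raised on day 8 were raised on day 13 by a median of 2.61 in expanded and 2.51 in growing leaves. The rise passed the test in 1184 of them in expanded (94.2%, against 22.1% of all genes) and 1152 in growing leaves (91.6%, against 17%). The interaction passed as negative in 32 (2.55%, against 1.58% of all genes) and as positive in 1 (0.0796%, against 1.93%), and negative calls outnumbered positive ones in every fit without a library, with 15 to 56 against 0 to 21. The 32 became 56 and 20 without replicates 2 and 3 of the expanded controls, 20 and 15 without replicates 3 and 4 of expanded 100 ppb, 19 without replicate 4 of growing controls and 19 without replicate 1 of growing 100 ppb. The median interaction over the set was −0.07. It was 0.46 without replicate 1 of growing 100 ppb, 0.25 without replicate 1 and 0.09 without replicate 3 of the expanded controls, 0.06 without replicate 2 of expanded 100 ppb and 0.12 with equal totals, so the sign of the median did not hold for the raised genes.

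The 889 genes lowered on day 8 were read the same way, and their choice in expanded leaves favours a larger fall there. On day 13 their median response was −1.68 in expanded and −0.98 in growing leaves, and the fall passed in 682 (76.7%, against 19% of all genes) and 418 (47.0%, against 11%). The median interaction was 0.72, with 698 genes (78.5%) above 0, as were 52.4% of all genes. It passed as positive in 137 (15.4%, against 1.93% of all genes) and as negative in 5 (0.562%, against 1.58%); without replicate 4 of expanded 100 ppb 86 passed as positive. With each of the 16 libraries left out the median stayed between 0.55 and 0.85, the lowest without replicate 1 of growing 100 ppb, and it was 0.70 with TMM scaling and 0.94 with equal totals. By library, the median of the lowered genes against their own control mean was −1.74, −1.42, −1.51 and −2.15 in expanded leaves at 100 ppb and −0.55, −0.86, −1.31 and −1.13 in growing leaves. All expanded libraries were below all growing ones. For the raised genes it was 2.40, 2.85, 2.73 and 2.52 in expanded and 1.10, 3.24, 3.15 and 2.54 in growing leaves, where replicate 1 was below and 2 other libraries were above every expanded one.

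**Figure D5:**
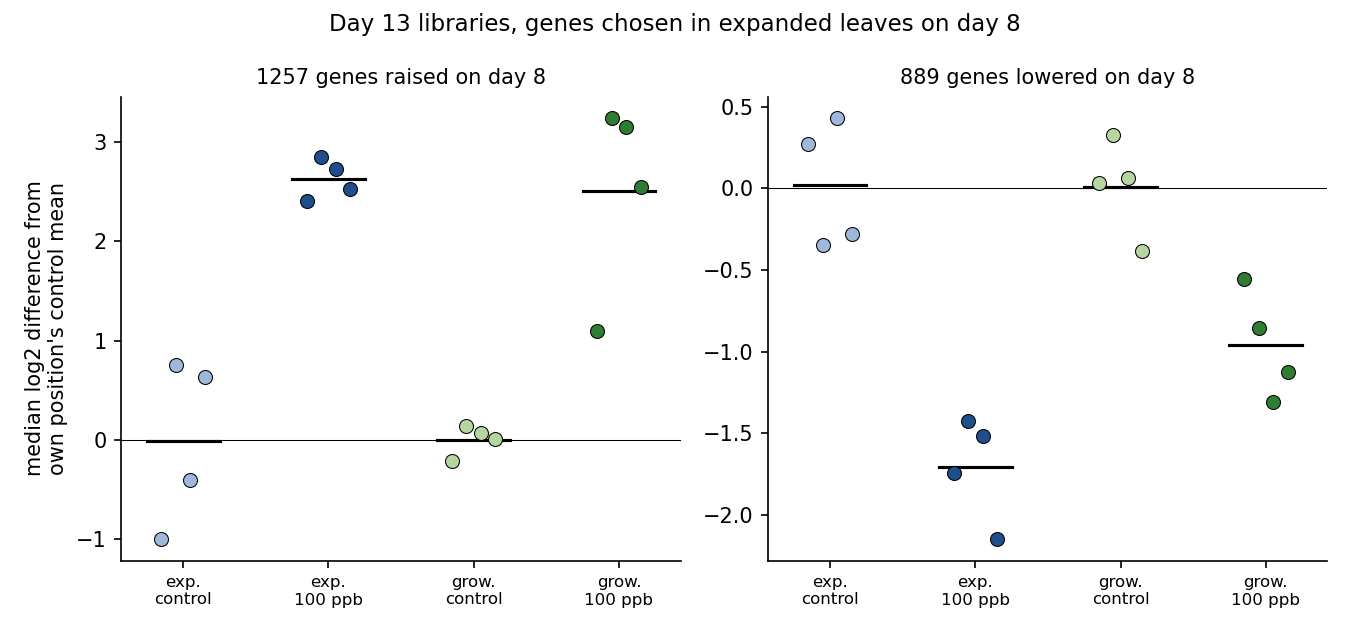
Median log2 difference from the control mean of the same leaf position (y axis) in each day 13 library, over 1257 genes raised (left) and 889 genes lowered (right) in expanded leaves on day 8; points are libraries in the order of replicates, lines are means of 4. Raised genes are up in both positions, by 2.40 to 2.85 in expanded and 1.10 to 3.24 in growing leaves, with replicate 1 lowest there. Lowered genes are further down in expanded (−2.15 to −1.42) than in growing leaves (−1.31 to −0.55).

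The interaction genes were found at all levels of expression, and some were neighbours in the order of their identifiers. Split into 4 equal bins by mean level over the 16 libraries, 2.25%, 4.42%, 4.03% and 3.35% of the genes passed, from the lowest bin (median 20.1 normalized counts) to the highest (2276). In the highest bin negative calls outnumbered positive ones, 164 to 69, and in the second bin positive ones led, 203 to 104. Ordered by the number in their identifiers, 43 of the 536 positive genes (8.02%) had a neighbouring tested gene with a positive call, as did 3.85% of all 27638 tested genes that could be placed. For negative calls the shares were 39 of 437 (8.92%) and 3.09%. Whether neighbours are copies that share reads was not assessed.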

How the data were processed

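Leaf RNA of hybrid poplar was measured in 72 libraries, 4 in each of 18 groups; the 16 of day 13 in filtered air and at 100 ppb ozone carry the contrast described here. Per the labels' protocols, libraries were stranded, made from poly(A)-selected RNA with 11 cycles of PCR and read in pairs. The tools listed in the submitters' processing notes, without their roles, are DESeq2 1.24.0, Subread 1.6.1, TopHat2 2.12 and featureCounts; build and annotation are not given in the sources used here. What the authors deposited is a normalized signal, 1 normalized count for each gene in each library. In every column 100% of the values were whole multiples of a single step (tolerance 0.01 reads, largest deviation 0.00061), so whole read counts were recovered for the count-based tools. All columns belonged to a labelled sample (0 left out). No pair of libraries in the 4 groups agreed within sampling noise (smallest chi-square per degree of freedom 13.9).

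Genes with at least 10 normalized counts in at least 4 libraries were tested (27780; 1923 listed genes had no read in any library). The tests used log2(value + 1) in limma 3.58.1 (R 4.3.3), with a mean per group over all 72 libraries (54 residual degrees of freedom; 12 with the 16 libraries alone), eBayes with trend and no replicate block. The pseudocount understates changes of low genes. Adjusted p-values are Benjamini-Hochberg over all tested genes, two-sided, called at 0.05. Alternatives were a pseudocount of 8, no filter, a filter at 50, TMM scaling, equal totals, the compared libraries alone, a weight per group, a replicate block, edgeR 4.0.16 (quasi-likelihood), DESeq2 1.42.0, and each library left out. The test was tried on simulated data.

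The 4 genes named for day 13 passed at an adjusted p under 0.05, averaged at least 100 in 1 of the 4 groups or more, and were called in edgeR, the 16-library fit and each fit without a library; the 2 with the largest interaction per direction are given, since no table paired identifiers with names. For the other contrasts the gene with the largest effect per direction among those passing and averaging at least 100 in a compared group is given, with no further condition. Gene lists by product, leaf markers included, could not be used either, and no sequence is shown. Groups were set by the labels. Contrasts, gene sets and lists were chosen with earlier results of these data known.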

Additional observations from a re-analysis of the deposited data

Results flagged for a closer look

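Each gene given here passed a test of the difference itself in the main fit. That difference was of the ozone response between leaf positions, or its change between days. On day 13 the interaction was 3.54 in Potri.010G184000, 3.18 in Potri.018G103900, −3.20 in Potri.001G362200 and −2.52 in Potri.017G041500 (log2). The day 8 interaction was 1.97 in Potri.010G178200 and −4.17 in Potri.003G152400, and that of day 2 was 2.84 in Potri.006G060000 and −4.66 in Potri.019G122100. In this order, these calls were lost in 12, 15, 13 and 7 of 26 alternatives. The interaction changed from day 8 to day 13 by 7.15 in Potri.016G057600, whose interaction passed on neither day, and by −5.84 in Potri.015G099400. The calls for this change were lost in 15 and 1 of 42 alternatives.

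Single libraries lay far from the other 3 of their group in 4 of the 72 group values looked at, a rule that chance alone meets in about 1 in 20 groups. Replicate 3 of the expanded controls of day 13 held 50.5 normalized counts of Potri.017G041500, against 39.4 to 40.7 in the other libraries. For Potri.003G152400 on day 8, replicate 1 of growing leaves at 100 ppb held 24.6, against 5.18 to 6.49, and replicate 4 of expanded leaves at 100 ppb held 1330 (1329.55), against 246 to 339. Over the 536 genes with a positive interaction, replicate 4 of the growing controls of day 13 had a median of −0.17 against the mean of its group, and the others 0.05 to 0.09.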

How the results depend on the processing

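The day 13 interaction count of 976 was 1918 with equal totals, 1517 by DESeq2, 528 with a weight per group and 17 with the compared libraries alone, and 401 to 1391 with a library left out. The day 8 count of 19 was 49 with a pseudocount of 8, 12 with a filter at 50, 0 with equal totals, 87 with the compared libraries alone, 213 with weights per group, 221 by DESeq2, and 0 to 298 with a library left out. The day 2 count of 109 was 186 with TMM, 31 with equal totals, 0 with the compared libraries alone and with weights per group, 202 by edgeR, 696 by DESeq2, and 12 to 1107. The 80 ppb count of 0 was 5 by DESeq2 and stayed 0 with each library left out in turn. The change count of 27 was 48 with a pseudocount of 8, 104 with equal totals, 3 with the compared libraries alone, 89 by edgeR, 316 by DESeq2, and 4 to 342. Left out one at a time, the libraries gave 5242 to 8803 changed genes in growing and 9614 to 11961 in expanded leaves, and 4425 to 8901 and 7959 to 9828 genes that differed between positions in filtered air and at 100 ppb. The 6938 of filtered air were 11800 with equal totals and 4399 with the 16 libraries alone. The cause of these shifts was not tested. Fits of fewer libraries also have fewer degrees of freedom, and whether this moved the counts was not tested either.

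Whether replicate numbers pair the libraries was not settled. Deviations from group means correlated above 0.1 in 11 of 24 same-number pairs (−0.22 to 0.41), and pairs of unlike number are not given for comparison. With the replicate block the counts were 1150 for day 13, 35 for day 8, 228 for day 2, 1 at 80 ppb and 43 for the change, each above the count without it. Alternatives for the separate responses, for the day 8 gene sets and for genes named outside the rule were chosen after seeing the data. No named gene changed sign under any alternative. With 4 libraries a group and a wide spread in the expanded controls, genes that did not pass are not shown to respond alike in both positions.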
